A study of Mus musculus with 5 samples.

Results

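Major urinary proteins (MUPs) were followed in mouse liver tumours through 10 genes, Mup1, Mup2, Mup3, Mup7, Mup9, Mup11, Mup14, Mup17, Mup20 and Mup21. The members were the rows that carry one of these 10 symbols, of 22287 gene rows in all, and 12 further rows hold other Mup genes. Total RNA came from liver tumours of C57BL/6 mice given DEN+CCl4 (the carcinogen diethylnitrosamine with the liver toxicant carbon tetrachloride) for 5 months. All libraries share this strain and treatment, and they differ in genotype: 2 are wild type (WT 1 and WT 2) and 3 are lnc-CTHCC-/- (KO 1, KO 2 and KO 3), which lack a long noncoding RNA gene. The labels give no untreated liver, no age or sex of the animals and no account of how the allele was made. Separate animals are not stated for the libraries of 1 genotype, so p-values measure the spread between these libraries, and that spread may be technical. No check of the deleted transcript was made, and genotypes follow the labels.

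MUPs are small secreted lipocalins, barrel-shaped carriers with a pocket for hydrophobic ligands. Mouse hepatocytes release them into the blood, the kidney passes them into the urine, and there they bind volatile pheromones and slow their release. Hepatic Mup transcription is known to be higher in males and to depend on pulses of growth hormone acting through STAT5, together with androgen, thyroid hormone and glucocorticoid. Mup20, also named darcin, is a male signal that attracts females, and Mup1 has also been studied as a circulating regulator of glucose and lipid metabolism.

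The 22 Mup genes lie in 1 cluster, chr4:59956804-62150863 (GRCm38, GENCODE vM21), which spans 2194.1 kb and holds no other protein-coding gene among its 54 annotated genes. The 10 members lie on the minus strand between 60066469 and 62150863, from Mup7 (chr4:60066469-60070475) to Mup20 (chr4:62050234-62054158), Mup3 (chr4:62083476-62087342) and Mup21 (chr4:62147932-62150863). Their coding sequences fall into a near-identical group of 7 and 3 further genes. Mup1, Mup2, Mup7, Mup9, Mup11, Mup14 and Mup17 share 98.34 to 99.63% of coding bases with each other, except that Mup9 and Mup11 are 100% alike over a short coding isoform of 282 bases, and are called the 7 near-identical members here. Each identity is that of the most alike pair of annotated coding transcripts. Mup20 shares 90.06 to 91.34% with these 7, Mup3 82.61 to 83.88% and Mup21 83.79 to 84.9%. Mup3 and Mup21 share 94.93% with each other, while Mup20 shares 87.5% with Mup3 and 88.21% with Mup21.

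A stretch of 60 coding bases is shown as an example of bases by which a sequencing read can tell genes apart. It was picked to be the same in all 7 near-identical members and to differ most, in sum, in Mup20, Mup3 and Mup21. It is therefore not a typical stretch of these genes. All 7 near-identical members carry the same letters as Mup14 in this stretch, which lies in exon 4 of Mup14 (chr4:61301782-61301841), Mup20 (chr4:62051951-62052010), Mup3 (chr4:62085254-62085313) and Mup21 (chr4:62148634-62148693), all on the minus strand of GRCm38. Capitals mark the bases that differ from Mup14, 8 in Mup20 and 7 each in Mup3 and Mup21.
Mup14: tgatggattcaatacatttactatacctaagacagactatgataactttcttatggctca
Mup20: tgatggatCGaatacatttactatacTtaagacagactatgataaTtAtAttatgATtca
Mup3: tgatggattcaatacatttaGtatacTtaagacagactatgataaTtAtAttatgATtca
Mup21: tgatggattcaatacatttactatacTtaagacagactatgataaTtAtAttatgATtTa
At 6 of the 60 positions Mup20, Mup3 and Mup21 all carry the same base, unlike Mup14.

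Reads shared between paralogs limit what the values of single members mean. Of the 100-base windows in the annotated coding transcripts of Mup3, 97.8% occur in no other annotated gene, and for Mup21 the share is 95.5%. For Mup20 it is 61.2%, and its remaining windows of this length are shared with the pseudogene Mup-ps19 alone. The 7 near-identical members range from 2.3% in Mup2 to 44.3% in Mup1, with 19.5% in Mup14. Mup22 and Mup19, which are no members, have no such window at all. With windows of 50 bases the share is 86.7% in Mup3, 80.7% in Mup21 and 49.5% in Mup20, against 38.4% in Mup1. At that length Mup20 shares windows with 20 other Mup genes. The table gives 1 value per gene, and the sources used here do not give how a read that fits several Mup genes was assigned. Among the members, the values of Mup3 and Mup21 are therefore the most specific to their gene, and those of Mup20 less so. Those of the 7 near-identical members are uncertain one by one.

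**Figure D1:**
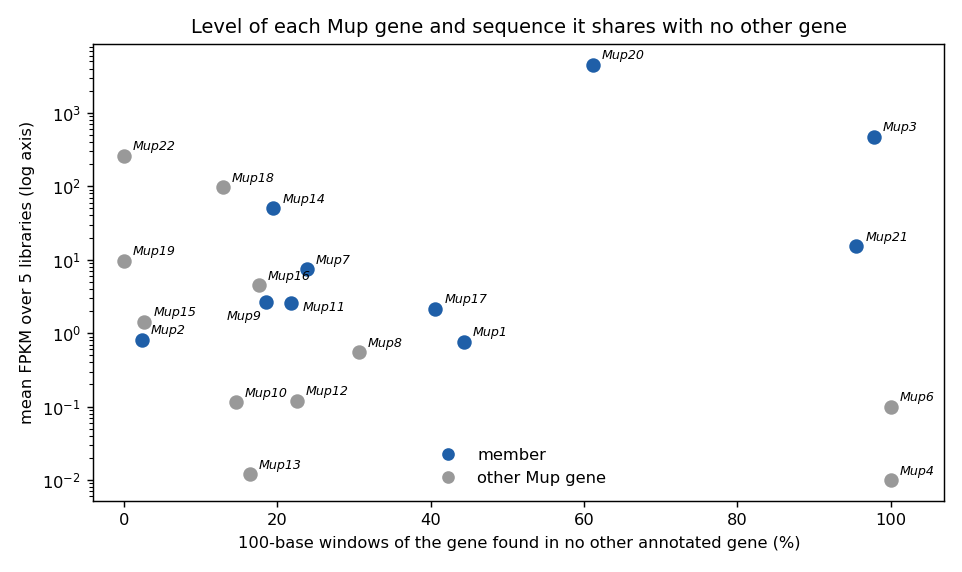
Mean FPKM over the 5 libraries (vertical log axis) against the share of 100-base transcript windows that no other annotated gene holds (horizontal axis, %), with members in blue and other Mup genes in grey. Mup3 and Mup21 stand to the right with shares of 97.8% and 95.5%, while Mup22 has a mean of 261 FPKM and no window of its own; Mup5, listed at 0 in all libraries, is not drawn.

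Promoter sequence was available for 8 of the 10 members (RefSeq, GRCm38.p6, 250 bases before to 50 after the start) and for 14 of the 22 Mup genes; Mup1 and Mup20 have no entry. The stretches below are shown for the core motif of ONECUT factors, since Onecut1 was the 1 gene called between the genotypes. They run 5′ to 3′ on the minus strand, for Mup3 (chr4:62087310-62087491), Mup21 (chr4:62150831-62151009), Mup14 (chr4:61303968-61304175) and Mup17 (chr4:61595839-61596055). Capitals mark ATCAAT, the other-strand reading of the core ATTGAT, and the TATA box TATATAA.
Mup3: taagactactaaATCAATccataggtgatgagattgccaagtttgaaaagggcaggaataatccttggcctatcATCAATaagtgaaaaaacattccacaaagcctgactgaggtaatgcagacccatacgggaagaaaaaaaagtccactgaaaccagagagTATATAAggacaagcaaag
Mup21: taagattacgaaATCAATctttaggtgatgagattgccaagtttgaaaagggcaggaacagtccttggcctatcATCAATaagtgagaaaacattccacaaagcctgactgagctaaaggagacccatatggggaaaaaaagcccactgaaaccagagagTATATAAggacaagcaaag
Mup14: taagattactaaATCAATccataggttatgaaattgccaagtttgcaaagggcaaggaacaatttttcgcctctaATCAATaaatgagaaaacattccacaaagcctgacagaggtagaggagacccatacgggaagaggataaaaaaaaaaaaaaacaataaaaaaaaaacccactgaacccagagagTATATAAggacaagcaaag
Mup17: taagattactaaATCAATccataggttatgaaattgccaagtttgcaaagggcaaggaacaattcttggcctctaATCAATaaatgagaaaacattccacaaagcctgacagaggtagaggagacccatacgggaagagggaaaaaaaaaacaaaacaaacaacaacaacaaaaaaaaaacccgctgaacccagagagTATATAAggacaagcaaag
Both copies of ATCAAT start 62 bases apart in Mup3 and Mup21 and 63 bases apart in Mup14 and Mup17. The core was searched on both strands, and at least 2 matches were found in all 14 Mup windows, against 0.69% of all 32851 promoter windows of this length. At least 1 match was found in 7.5% of all windows. TATATAA was found in 7 of the 8 member windows and in 3.2% of all windows. Its offset from the annotated start varied, such as 12 in Mup14 and -31 in Mup9. Mup7, the member without it, has its ATCAAT copies at -82 and -19, against -211 and -148 in Mup17. Whether its TATATAA lies beyond the window was not tested. The STAT5 letters TTCNNNGAA were in 0 of the 14 Mup windows against 8.3% of all windows, and the C/EBP letters TTGNNCAA in 0 of 14 against 6.4%. The Mup windows share much of their sequence and do not count as separate observations: identity between the printed stretches was 91.8% for Mup3 and Mup21, 93.5% for Mup14 and Mup17, and 74.7 to 78.8% for the other 4 pairs. A match is a run of letters and not a measured binding site.

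Levels are given in FPKM, fragments per kilobase scaled to the fragments of the library, so they are scaled for gene length and can be set beside each other. Mup20 was the most abundant member in all 5 libraries, with 1707 FPKM in WT 1, 7270 in WT 2, 3939 in KO 1, 4435 in KO 2 and 5225 in KO 3. The WT pair held both its lowest and its highest library, and all 3 KO libraries lay between them. Mup3 followed with 152 FPKM in WT 1, 1213 in WT 2, 345 in KO 1, 183 in KO 2 and 484 in KO 3. Again the 3 KO libraries lay inside the WT range, 8.0-fold wide.

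Mup14, the most abundant of the near-identical members, had 42.1 FPKM in WT 1, 79.8 in WT 2, 59.5 in KO 1, 12.6 in KO 2 and 58.0 in KO 3. KO 2 was the low library here, and the other 2 KO libraries lay between the WT pair. Mup21 had 9.14 FPKM in WT 1, 26.4 in WT 2, 17.5 in KO 1, 7.16 in KO 2 and 15.7 in KO 3. Its lowest values were again KO 2 and WT 1. Mup7, another near-identical member, had 2.70, 20.3, 4.56, 1.80 and 7.42 FPKM in WT 1, WT 2, KO 1, KO 2 and KO 3.

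The other 5 members were low. Mup9 lay between 0.99 FPKM in KO 2 and 5.55 in WT 2, Mup11 between 0.29 in KO 2 and 5.59 in KO 3, and Mup17 between 0.33 in WT 1 and 5.23 in WT 2. Mup2 reached 1.84 FPKM and Mup1 1.27, both in WT 2. In mean level the order was Mup20 (4515 FPKM), Mup3 (475), Mup14 (50.4), Mup21 (15.2), Mup7 (7.36), Mup9 (2.64), Mup11 (2.54), Mup17 (2.16), Mup2 (0.818) and Mup1 (0.760). Neighbours in this order had ranges that did not overlap only for Mup20 over Mup3 and Mup3 over Mup14. Mup14 over Mup21, Mup21 over Mup7, Mup7 over Mup9 and Mup17 over Mup2 overlapped in range but kept their order within each of the 5 libraries.

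**Figure D2:**
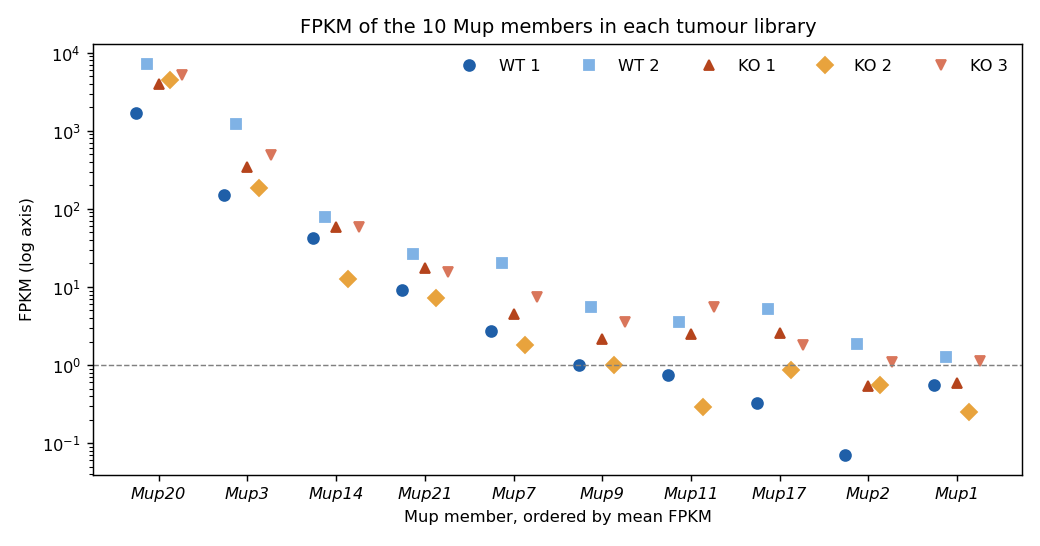
FPKM of each member (vertical log axis) in the 5 tumour libraries, with 1 symbol per library, members ordered by mean and a dashed line at 1 FPKM. WT 2 is the highest library in 9 of the 10 members, and WT 1 or KO 2 is the lowest in all 10.

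The libraries of 1 genotype differed more than the genotypes did. WT 2 was the highest library for 9 of 10 members, the exception being Mup11, highest in KO 3. The lowest library was WT 1 for 4 members and KO 2 for 6, and for 8 of 10 members WT 1 and KO 2 were the lowest pair. WT 2 exceeded WT 1 by 1.90-fold in Mup14 to 26.3-fold in Mup2, where WT 1 had 0.07 FPKM, with a median of 5.17-fold. On the log2(FPKM + 1) scale the median gap between WT 2 and WT 1 was 1.90 over the 8 tested members and 0.23 over all 10132 tested genes. The gap of each tested member exceeded that of 94.9% (Mup14) to 99.95% (Mup3) of tested genes. Within KO, the highest library exceeded the lowest by 1.33-fold in Mup20 to 19.3-fold in Mup11.

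**Figure D3:**
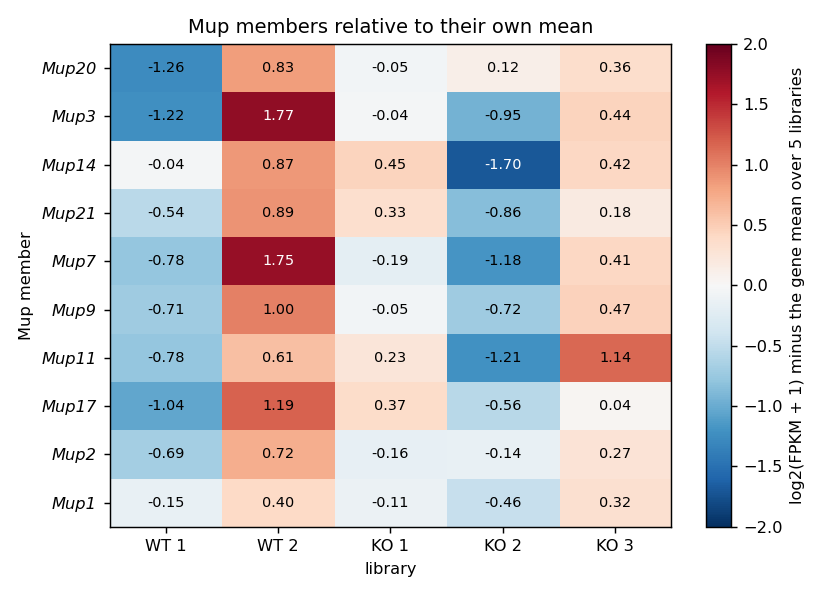
Each member's log2(FPKM + 1) in each library minus the mean of that member over the 5 libraries, with red above and blue below the mean. The WT 2 column is above the mean in all 10 members and the WT 1 column below it in all 10, while KO 2 is below it in 9 of 10, with Mup20 at 0.12 as the exception.

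KO 2 divided the members. Relative to the mean of KO 1 and KO 3, its level was 0.968 in Mup20, 0.442 in Mup3, 0.431 in Mup21, 0.214 in Mup14 and 0.0716 in Mup11. The Mup20 value over that of Mup3 in the same library was 11.3 in WT 1, 5.99 in WT 2, 11.4 in KO 1, 24.2 in KO 2 and 10.8 in KO 3. Over the 7 near-identical members summed, it was 36.0 in WT 1, 61.8 in WT 2, 54.4 in KO 1, 256 in KO 2 and 66.5 in KO 3. These are ratios within a library, so they do not depend on how libraries were scaled, and KO 2 had the highest of both. The second ratio still rests on how reads were split between the 7 and other Mup genes alike to them, such as Mup22 and Mup18.

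Summed over the 10 members, the level was 1915 FPKM in WT 1, 8626 in WT 2, 4374 in KO 1, 4643 in KO 2 and 5802 in KO 3. These sums made up 0.347, 1.63, 0.831, 0.863 and 1.09% of all FPKM, in the same order, and between 2.03 and 11.5% of the level of albumin (Alb), the main secreted protein of hepatocytes. Mup20 supplied 84.3% of the sum in WT 2 and 95.5% in KO 2, with the other libraries between. The mean sum was 5271 ± 4745 FPKM in WT (SD, n = 2) and 4940 ± 759 FPKM in KO (SD, n = 3), a ratio of 0.937. The mean difference of log2(sum + 1) had the other sign, 0.27 higher in KO. Without WT 2 that difference was 1.36, and without WT 1 it was -0.82, so its sign rests on the WT pair.

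Without Mup20, the sums gave another order. The other 9 members summed to 208 FPKM in WT 1, 1357 in WT 2, 435 in KO 1, 208 in KO 2 and 578 in KO 3. For the 7 near-identical members, whose reads are least separable, the sum was 47.5 FPKM in WT 1, 118 in WT 2, 72.4 in KO 1, 17.3 in KO 2 and 78.6 in KO 3. Its log2 difference was -0.68, with KO 1 and KO 3 between the WT pair and KO 2 under both. Other Mup genes are as alike to these 7: Mup18 and Mup22 share 99.82 and 99.63% of coding bases with Mup11. Over all 16 Mup genes this alike, the sum was 212 FPKM in WT 1 and 953 in WT 2. In KO 1, KO 2 and KO 3 it was 415, 126 and 502 FPKM. WT 2 exceeded WT 1 by 4.50-fold in that sum and by 2.48-fold in the sum over the 7. The sum over the 7 therefore still rests on how shared reads were split.

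**Figure D4:**
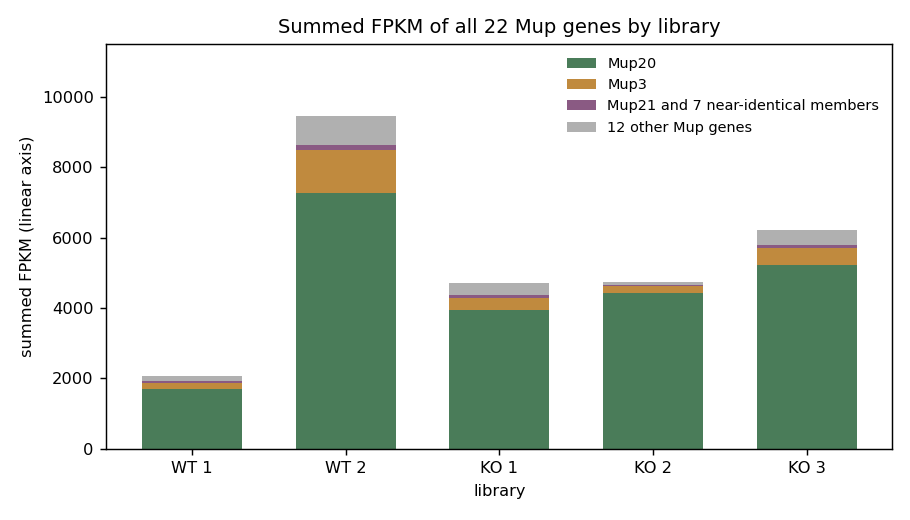
Summed FPKM (linear axis from 0) of all 22 Mup genes in each library, stacked as Mup20, Mup3, the other 8 members and the 12 other Mup genes. The stack is 2080 FPKM in WT 1 and 9462 in WT 2, and the 3 KO libraries stand between them at 4717 to 6226, each mostly Mup20.

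KO was compared with WT by limma on log2(FPKM + 1), adjusted by Benjamini-Hochberg over the 10132 genes with a mean of at least 1 FPKM. Of the 10 members 8 passed that filter, and Mup1 and Mup2 did not. In this fit 0.00987% of tested genes were called, the single gene Onecut1, and 0 of the 8 tested members were. At an unadjusted p under 0.05, 0 of 8 members passed against 3.23% of all tested genes. For 0 of 10 members did the libraries of the genotypes separate without overlap, against 15.1% of tested genes (9.78% higher and 5.29% lower in KO). Of the 8, 6 had a lower and 2 a higher fitted mean in KO, with a median log2 difference of -0.27; over all tested genes 38.6% were lower and the median was 0.05.

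Mup7 had the largest difference, -0.81 on the log2(FPKM + 1) scale with a 95% interval from -2.34 to 0.73 (limma, adjusted p = 0.999). Mup14 was at -0.69 (interval -2.05 to 0.66), Mup3 at -0.46 (-2.13 to 1.22), Mup21 at -0.29 (-1.32 to 0.73), Mup9 at -0.25 (-1.35 to 0.86) and Mup17 at -0.12 (-1.38 to 1.14). Mup11 was at 0.14 (-1.28 to 1.56) and Mup20 at 0.35 (-0.77 to 1.48). The adjusted p was 0.999 for each of the 8, and the smallest unadjusted p was 0.265, in Mup7 (limma). Every interval included 0 and reached at least 0.66 above and 0.77 below it, so a difference of that size in either direction was not distinguishable from the spread. The standard errors, 0.45 in Mup21 to 0.74 in Mup3, exceeded those of 98.5 to 99.9% of tested genes. The gap between WT 1 and WT 2 was wider than the difference between genotypes in 8 of 8 tested members.

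Each direction rested on single libraries. Without WT 1, all 9 members that then passed the filter were lower in KO, with a median of -1.10. Without WT 2, 7 of 8 were higher, with a median of 0.72, and the exception was Mup14. Over all tested genes, 39.7% were higher in KO without WT 1 and 73.7% without WT 2. Without KO 2, 6 of 8 were higher, with a median of 0.07. None of these fits called a member at an adjusted p under 0.05.

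**Figure D5:**
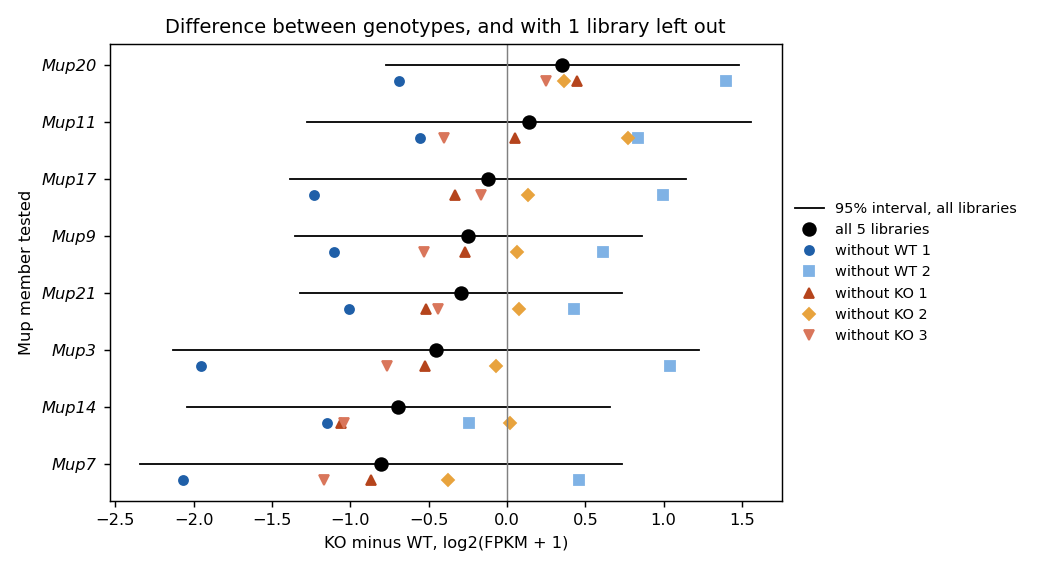
Difference KO minus WT in log2(FPKM + 1) for the 8 tested members, with all 5 libraries (black point, 95% interval as a line) and with each library left out in turn (coloured symbols below). Each interval crosses 0, and without WT 1 every symbol lies left of 0, while without WT 2 every symbol lies right of it except that of Mup14, at -0.24.

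In the authors' deposited table, 8 of the 10 members have a lower and 2 a higher KO mean, Mup11 and Mup20. The log2 fold changes in the authors' deposited table run from -1.32 (Mup7) to 0.38 (Mup11), and the false discovery rate there is 0.99986 for all 10, while 36 genes (0.162%) of the authors' deposited table are under 0.05. For Mup20 the authors' deposited table gives 0.01, since that value compares means of FPKM and not means of logs.

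The other Mup genes showed the same library order in part, but they are not separate observations from the members. Of their 100-base windows, 0% in Mup22 and Mup19 and 12.9% in Mup18 occur in no other annotated gene. Their values may therefore hold reads shared with the near-identical members. Mup22, at 114 FPKM in WT 1, 588 in WT 2, 239 in KO 1, 76.6 in KO 2 and 291 in KO 3, and Mup18, at 44.3, 223, 81.7, 27.6 and 108.49 in that order, were highest in WT 2 and lowest in KO 2. Mup19 had 4.56, 10.7, 15.3, 1.53 and 16.6 FPKM in the same order, highest in KO 3 as Mup11 was. Of these 12 genes 5 were tested, 4 lower and 1 higher in KO, with 0 called. Mup4 and Mup5, known mainly from nasal, lacrimal and salivary tissue, were at 0.05 FPKM in 1 library and listed at 0 elsewhere, and listed at 0 in all 5. Of 8 salivary, lacrimal and mammary gland markers, 5 were listed at 0 in all libraries (Wap, Smr3a, Bpifa2, Csn2 and Prol1). Of the same list, the casein gene Csn3 had 128 FPKM in WT 1, 38.3 in WT 2, 45.8 in KO 1, 19.1 in KO 2 and 25.5 in KO 3, and the amylase gene Amy1 had 28.1 to 48.5 FPKM.

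Pathways with a known part in Mup transcription were read from gene lists. The growth hormone list mixes regulators with feedback genes and outputs of the pathway, such as Igf1, so its counts do not describe upstream genes alone. Of 15 genes of the growth hormone and STAT5 axis 13 were tested, 8 higher and 5 lower in KO, and 1 was called. It is the single gene called in the whole fit, 0.00987% of tested genes. The list was chosen with earlier results of these data known, so this count is no result about the list. The called gene was Onecut1, a liver homeodomain factor that growth hormone regulates, at 2.20 and 2.39 FPKM in WT and 11.57, 9.57 and 12.04 in KO (log2 difference 1.87 ± 0.19 SE, limma adjusted p = 0.0470). The gene was not called in 13 of 18 alternative fits, with limma adjusted p from 0.0528 to 0.516, among them those without KO 3 and without any expression filter. The receptor gene Ghr had 25.7 and 65.3 FPKM in WT against 30.7, 32.2 and 44.4 in KO (log2 difference -0.21), and the transducer Stat5b was between 5.83 and 6.79 FPKM in all libraries. Socs2 and Cish, feedback inhibitors of this pathway, were at 6.37 and 3.29 and at 2.98 and 1.18 FPKM in WT. In KO they were at 11.3, 8.72 and 13.6 and at 12.4, 10.6 and 3.78 (log2 differences 1.10 and 1.62, limma adjusted p = 0.893 and 0.999). Bcl6, a repressor that opposes STAT5 at liver genes, had 1.67 and 6.47 FPKM in WT and 1.03, 0.70 and 1.11 in KO, a difference of -1.20 in log2 (limma adjusted p = 0.999). Left with 1 WT library, whose spread is then taken from the KO libraries, the Bcl6 difference was -1.95 without WT 1 (limma adjusted p = 0.0459) and -0.46 without WT 2 (limma adjusted p = 0.478).

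Of 9 hormone receptors and nuclear factors with a reported part in Mup control, 8 were tested, 6 higher and 2 lower, with 0 called. Zhx2, a zinc-finger homeobox factor with a reported part in adult Mup expression, was at 3.01 and 3.58 FPKM in WT and 4.0, 4.2 and 3.37 in KO (log2 difference 0.18). The glucocorticoid receptor gene Nr3c1 was at 7.62 and 12.6 FPKM in WT and 13.8, 11.0 and 11.6 in KO. Of 14 hepatocyte transcription factors, 10 were higher and 4 lower, with Onecut1, which stands in both lists, the 1 called.

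Genes that share the sex bias of Mup expression were also described by counts. Of 9 tested male-biased liver genes 7 were lower and 2 higher in KO, with a median of -0.21 and 0 called. Cyp4a12a, a male-biased cytochrome P450, was at 3.81 and 16.3 FPKM in WT and 5.24, 1.77 and 5.39 in KO. Its highest library was WT 2 and its lowest KO 2, as in Mup7, but other genes of the list had other orders. Serpina1e was highest in KO 1 at 4080 FPKM, Cyp2d9 lowest in KO 1 at 119 and Cyp2u1 lowest in KO 3 at 1.16. The summed list in WT 2 was 1.04 times that in WT 1, but most of this sum was Serpina1e (3960 FPKM in WT 1 and 3900 in WT 2). In the same 2 libraries Cyp2d9 was at 150 and 338 FPKM and Cyp2u1 at 2.24 and 3.42. Of 9 tested female-biased genes 5 were higher and 4 lower, with a median of 0.16 and 0 called. Sult2a2 had the smallest p of that list, at 34.7 and 29.6 FPKM in WT against 10.6, 7.39 and 10.4 in KO. Its log2 difference was -1.68 (limma adjusted p = 0.0857), and it was called with robust moderation. Trim24, next in p, was higher in KO by 0.59. Y-linked transcripts were present in all 5 libraries: Ddx3y was between 3.97 and 10.6 FPKM and Eif2s3y between 6.29 and 12.1, both lowest in WT 1. No gene row carried the symbol Xist, so it was not analysed here.

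Cell makeup was read from marker lists, since in bulk tumour fewer hepatocytes and less Mup RNA per hepatocyte cannot be told apart. All 7 hepatocyte markers were detected and tested, with Alb between 74739 and 94258 FPKM, highest in WT 1 and lowest in WT 2, the reverse of the order in 4 of the 10 Mup members. The summed hepatocyte markers in WT 2 were 0.763 of those in WT 1, mostly through Alb and Apoa1 (19107 and 11655 FPKM), while Cps1 was at 278 FPKM in WT 1 and 563 in WT 2. Summed cholangiocyte markers were 2.82 times as high in WT 2 as in WT 1, mostly through Spp1 (146 and 418 FPKM), and summed B and plasma cell markers 2.83 times as high (174 and 492 FPKM). In KO the cholangiocyte sum was 155 to 349 FPKM and the B and plasma cell sum 38.6 to 133 FPKM. Of 5 tested cholangiocyte markers 4 were higher in KO, of 4 tested B and plasma cell markers 4 were lower, and 0 were called. Macrophage and Kupffer cell markers summed to 118 FPKM in WT 1 and 156 in WT 2, and endothelial markers to 72.9 and 63.5. Of 12 periportal hepatocyte genes, 11 were lower in KO with 0 called and a median of -0.58, against 38.6% of all tested genes lower. Of 7 tested pericentral hepatocyte genes, 4 were higher and 3 lower, with 0 called and a median of 0.03. Summed, the periportal genes were 1.56 times and the pericentral genes 1.46 times as high in WT 2 as in WT 1. The part of these markers in the Mup values was not tested.

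Of the other lipocalins 7 of 11 were tested, 5 lower and 2 higher in KO, with 0 called. Lcn2, an iron-siderophore carrier of the acute phase, had 849 and 1144 FPKM in WT against 403, 669 and 432 in KO, a difference of -1.01 in log2 (limma adjusted p = 0.893). Orm1, which encodes an acute-phase plasma protein of the family, had 478 and 998 FPKM in WT against 222, 373 and 405 in KO (limma adjusted p = 0.999). Orm2 had 17.7 and 104 FPKM in WT against 3.81, 6.35 and 13.8 in KO, a log2 difference of -2.46 (limma adjusted p = 0.999). C8g had 86.6 and 117 FPKM in WT against 69.3, 77.0 and 73.4 in KO. In Lcn2, Orm1, Orm2 and C8g, named for the smallest p of the list, all KO libraries lay below both WT libraries. Such a separation was seen in 5.29% of tested genes, and in 15.1% counting both directions. Of 22 hepatocyte secreted proteins 12 were lower and 10 higher, with a median of -0.02.

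Genes most like the Mup members across the 5 libraries were ranked by the root mean square difference of their centred log2(FPKM + 1) values. To the sum of the members, which follows Mup20, the nearest were Zfp970 (0.143), Aldh1a1 (0.150), Zfp966 (0.156), Ptprd (0.164) and Akr1c14 (0.168), of 739 genes whose range across the libraries was wide enough to compare. Aldh1a1, a retinaldehyde dehydrogenase, was at 44.8 FPKM in WT 1, 154 in WT 2, 100.56 in KO 1, 91.1 in KO 2 and 123 in KO 3. To Mup3, the member of widest range, the nearest of 291 genes were Car3 (0.182), Ces3a (0.267) and Slco1a4 (0.290). Car3, a cytosolic carbonic anhydrase abundant in male mouse liver, was at 14.9 FPKM in WT 1, 99.5 in WT 2, 25.1 in KO 1, 12.6 in KO 2 and 42.9 in KO 3. As in Mup3, WT 2 was its highest library, and WT 1 and KO 2 were its lowest, which follows from picking it by likeness to Mup3. With 5 libraries such likeness is a description only.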

How the data were processed

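Total RNA of 5 liver tumour libraries was sequenced, and 1 table of 22287 genes was used. Its deposited FPKM values, rounded to 2 decimals, are the authors' own, per the file headers, and sum to between 526229 and 552619 per library. HISAT2, StringTie, limma, DESeq2, bcl2fastq 2.0 and mm10 are named, without roles, in the submitters' processing notes. The sources used here do not give the annotation, the strand or the handling of shared reads. The authors' deposited log2 fold change, p-value and false discovery rate were copied only where named. Total counts are not given and the rounded low values resolve no single read. Depth is therefore unknown, and neither counting intervals nor count models were computed.

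Groups and numbers came from the sample titles. Values were transformed to log2(FPKM + 1), which understates differences of low genes, and genes with a mean of at least 1 FPKM were tested with limma 3.58.1 in R 4.3.3 (empirical Bayes with trend, two-sided, 3 residual degrees of freedom, Benjamini-Hochberg, threshold 0.05). The procedure was run on simulated data with independent normal noise and planted differences. Those data held no shared reads and no outlying library, so the run says nothing about these limits. Alternatives were pseudocount, filter, scaling, moderation, replicate block and each library left out; 1 sum over all 22 Mup genes was added after seeing the data. Of 22287 identifiers, 22253 were found in GENCODE vM21 (GRCm38, the assembly of mm10), whose transcripts gave identities and windows; promoters are RefSeq's, GRCm38.p6. Named were all Mup genes, a fixed set of regulators and Y-linked genes, up to 4 genes per list by smallest p, markers listed at 0, and the genes of most similar pattern. The members and lists were chosen with earlier results of these data known.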

Additional observations from a re-analysis of the deposited data

How the results depend on the processing

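The fit had 2 and 3 libraries, unknown depth and 3 residual degrees of freedom, and shared reads leave the 7 near-identical members uncertain one by one. Without a WT library the lone WT sample is assumed to vary like the KO libraries. The count of called members was 0 in each alternative except the replicate block, which called 1, Mup14 (-1.04, limma adjusted p = 0.0338), and also Mup18, which is no member. That fit keeps 1 residual degree of freedom and leaves out KO 3, which has no WT library of its number. Deviations from the genotype mean correlated at 0.088 for WT 1 with KO 1 and at -0.24 for WT 2 with KO 2. With 2 WT libraries the WT deviations mirror each other, so these values cannot decide whether the numbers pair the samples. The block moved the count of called genes from 1 to 62 (19 higher, 43 lower).

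The count of called genes was 0 with a pseudocount of 5, without a filter, with a mean of at least 5 FPKM, with each of the 5 rescalings (common sum, without the Mup genes, without Alb, median-ratio, quantile) and with array weights, and 3 with robust moderation. With each library left out it ranged from 0 to 17, and the count of called members was 0 throughout. The median of the members ranged from -1.10 to 0.72 and the summed difference from -0.82 to 1.36. The summed difference was 0.23 over all 22 Mup genes and -0.68 over the 7 near-identical members. The share of tested genes higher in KO was 61.4%, and 50.6% with median-ratio scaling, where the members still stood at 6 lower and 2 higher.

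With each library left out, the log2 difference ranged from -2.07 to 0.46 in Mup7, -1.15 to 0.018 in Mup14, -1.95 to 1.04 in Mup3, -1.01 to 0.43 in Mup21, -1.10 to 0.61 in Mup9, -1.24 to 0.99 in Mup17, -0.55 to 0.83 in Mup11 and -0.69 to 1.40 in Mup20. It ranged from -0.22 to 0.12 in Alb, -0.87 to 0.44 in Ghr and -0.094 to 0.096 in Stat5b. Mup11 was at -0.40 under the replicate block, Mup17 at 0.16 and the untested Mup2 at 0.47 (-0.03 with a pseudocount of 1) with a pseudocount of 0.1, and Stat5b at -0.050 with median-ratio and -0.052 with quantile scaling. The cause was not tested for any of these.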
